A study of Mus musculus with 18 samples.

Results

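Skeletal muscle contractile and metabolic genes were followed through 18 RNA-seq libraries of mouse esophageal organoids. The 44 genes were taken by symbol from a named list, out of 24394 gene symbols that the 3 deposited tables share, and all 44 were found in each table. The genes were chosen by their measured levels in the tumor libraries, sgTgfbr2 against sgScr, so the tumor levels of these genes are given as a description with no test. Of the 44 genes, 14 are typical of fast fibers, 7 of slow fibers and 2 of developing muscle, and 21 are shared between fiber types.

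All libraries came from Trp53-/- organoids with Myc OE and sgCdkn2a. Tumor sgTgfbr2 organoids (2 libraries) carried sgTgfbr2 in addition and were set against tumor sgScr organoids (3 libraries). Premalignant sgTgfbr2 organoids (4 libraries, 2 each from lines numbered 1 and 2) were set against premalignant sgScr organoids (3 libraries). Tumor sgTgfbr2 organoids grown for 72 h and then given 2 µM pinaverium bromide (PB, a calcium channel blocker; 3 libraries) were set against the same genotype given DMSO (vehicle; 3 libraries). The described medium contained 2 µM A83-01, an inhibitor of TGF-beta type I receptors, for every group. The labels do not say how the tumor organoids were freed of host cells, whether the numbered lines are clones, or what sets replicates of a group apart. Each p-value therefore reflects variation among the sequenced libraries alone, and that variation could be technical.

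A striated muscle fiber is packed with sarcomeres, in which myosin heavy and light chains of the thick filament pull on actin thin filaments. Calcium released from the sarcoplasmic reticulum binds troponin C on the thin filament, and troponin I and troponin T then let myosin bind. Fast, slow and developing fibers build this machine from different isoforms of the same parts. In the mouse, the muscle wall of the esophagus is largely striated, while its lining is a stratified squamous epithelium, the tissue that these organoids are labelled as.

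The stretches upstream of 3 of the most abundant members are shown because several skeletal muscle regulators bind short motifs there. They are the 250 bases before the RefSeq start (GRCm38.p6), 5′ to 3′ on the gene's strand, with matches to the motifs below in capitals: Acta1 (chr8:123894776-123895025, minus strand), Mylpf (chr7:127211358-127211607, plus strand) and Mb (chr15:77022788-77023037, minus strand).
Acta1: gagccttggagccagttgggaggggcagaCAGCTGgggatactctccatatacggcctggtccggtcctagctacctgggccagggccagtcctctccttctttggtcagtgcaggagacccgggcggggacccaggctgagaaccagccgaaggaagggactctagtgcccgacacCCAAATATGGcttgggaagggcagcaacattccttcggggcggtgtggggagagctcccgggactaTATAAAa
Mylpf: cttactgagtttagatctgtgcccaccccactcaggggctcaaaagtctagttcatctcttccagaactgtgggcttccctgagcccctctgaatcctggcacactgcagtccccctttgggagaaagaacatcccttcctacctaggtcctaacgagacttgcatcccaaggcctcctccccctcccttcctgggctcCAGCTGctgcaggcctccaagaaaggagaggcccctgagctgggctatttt
Mb: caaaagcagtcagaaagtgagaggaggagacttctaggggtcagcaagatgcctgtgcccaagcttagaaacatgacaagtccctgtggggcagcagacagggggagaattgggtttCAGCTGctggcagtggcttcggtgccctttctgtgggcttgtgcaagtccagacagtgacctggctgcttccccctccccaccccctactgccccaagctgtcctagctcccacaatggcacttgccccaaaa

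The capitals mark the E-box CAGCTG, which MyoD-family factors can bind, the TATA box TATAAA and the CArG box, a serum response factor motif. The Acta1 stretch held all 3, with the TATA box at bases -7 to -2 from the RefSeq start. The CArG box lay at -73 to -64 and the E-box at -221 to -216. The GENCODE annotation starts Acta1 further downstream, at base 123894751 on the minus strand, so these distances hold for the RefSeq start only. The Mylpf and Mb stretches shown each held 1 CAGCTG, at bases -51 to -46 and -133 to -128. RefSeq gives Mb 3 starts, and the stretch shown is the one of the 3 with no base in an annotated exon. The other Mb stretches, and that of Tnnc2, overlap exons and are not shown. Of those Mb stretches, 1 overlaps the stretch shown and held the same CAGCTG, while the other and Tnnc2 held none of the 3 motifs. Upstream stretches were on hand for 33 of the 44 members, 40 stretches in all. Of the 40, 17 (42.5%) contained CAGCTG on either strand, against 13% of 32851 stretches of all genes. Stretches of the same gene can overlap and count a site more than once. By gene, 15 of the 33 members held CAGCTG. The looser E-box CANNTG, which includes CAGCTG, was in 82.5% against 66.2%, TATAAA in 20% against 12.4%, a MEF2 site in 15.0% against 2.92% and a CArG box in 12.5% against 1.47%. These are letter matches and were not tested as sites of binding.

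Library totals ran from 14993749 to 21784140 counts, so 3 counts, taken as the floor of detection, equal 0.138 to 0.200 CPM (counts scaled to the library total). The targeted gene Tgfbr2 was lower but still counted with the guide, at 67.5 and 71.2 CPM in tumor sgTgfbr2 against 112 to 129 CPM in tumor sgScr, and at 86.2 to 131 CPM in premalignant sgTgfbr2 against 179 to 219 CPM in premalignant sgScr. The labels give no target site, so a transcript level does not check the edit. As these are bulk libraries, fewer cells of a type and less RNA per cell cannot be told apart. The 3 tables were deposited separately, and no test was made between tables.

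Skeletal muscle transcripts stood highest in tumor sgScr: the 44 genes summed to 29259 to 30523 CPM in the 3 tumor sgScr libraries and to at most 44.01 CPM in the other 15 libraries. In the tumor table the sums were 40.9 and 42.6 CPM in sgTgfbr2 against 29613, 30523 and 29259 CPM in sgScr, where they made up 2.98 ± 0.0652% of all counts (SD, n = 3). The sums averaged 31.0 ± 5.12 CPM in premalignant sgTgfbr2 (SD, n = 4) and 20.5 ± 2.69 CPM in premalignant sgScr (SD, n = 3). With PB they averaged 24.1 ± 0.229 CPM, and with vehicle 42.8 ± 1.07 CPM (SD, n = 3 each). The vehicle libraries, of the tumor sgTgfbr2 genotype, were thus at about the level of the tumor sgTgfbr2 libraries of the other table.

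**Figure D1:**
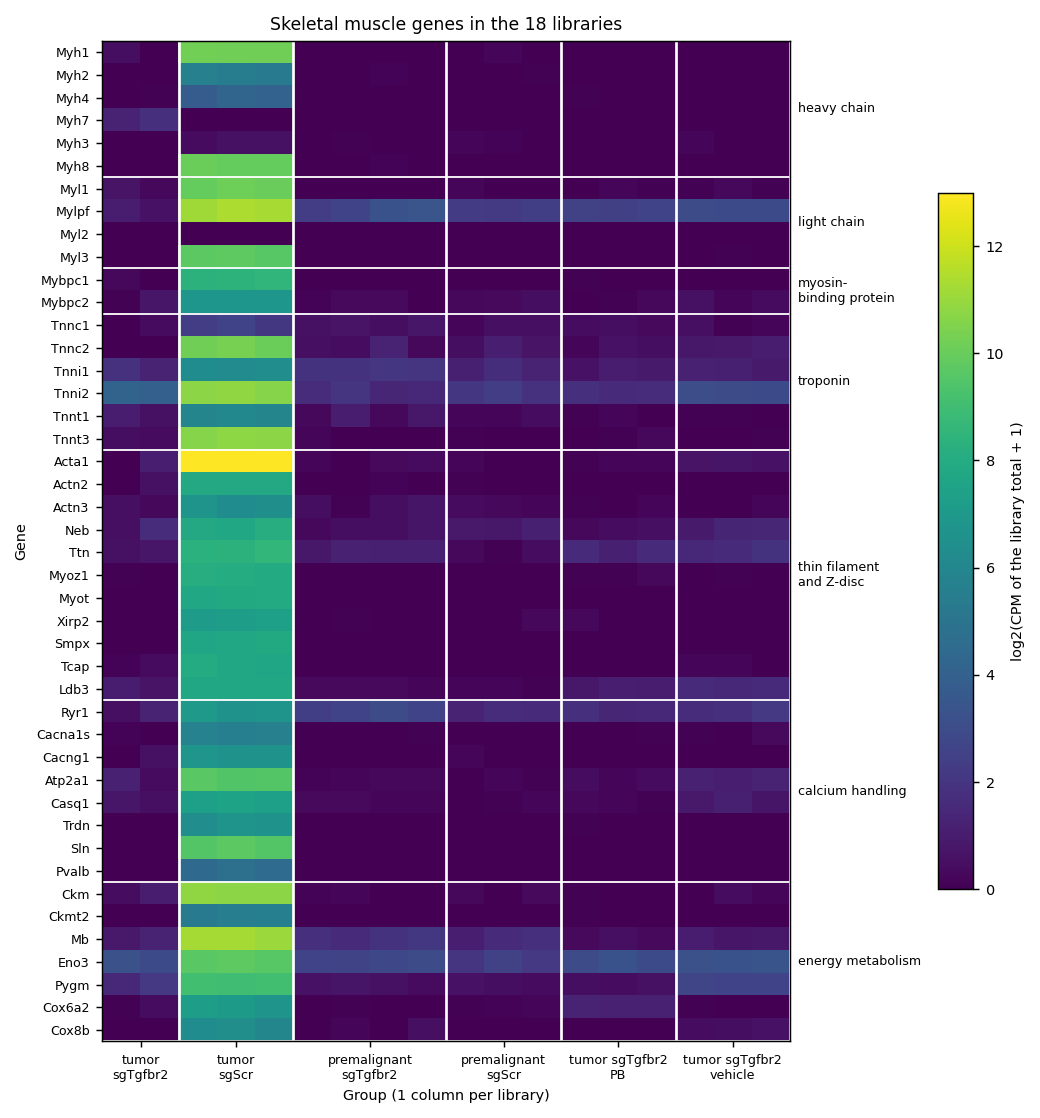
Each row is 1 of the 44 skeletal muscle genes, ordered by role, and each column is 1 of the 18 libraries, with color giving log2(CPM + 1). The 3 tumor sgScr columns are dark for Myh7 and Myl2, faint for Myh3 and Tnnc1, and brighter in all other rows. The other 15 columns are dark in most rows.

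In the tumor table, 42 of the 44 members were lower in both sgTgfbr2 libraries than in all 3 sgScr libraries, a pattern that 24.7% of the 18596 genes with counts showed. Since the list was drawn up on this contrast, nothing is read from that count. Among the 42, 29 had counts in both groups, and their ratios of pooled counts ran from 30.9-fold to 14754-fold lower with a median of 567. The other 13 had no count in sgTgfbr2, and measured against 3 counts over that group they were at least 5.28-fold to at least 14364-fold lower. The exceptions were Myh7, which was higher in sgTgfbr2, and Myl2, which had no count in any of the 18 libraries.

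By class, the 14 fast genes summed to 19.7 ± 2.84 CPM in tumor sgTgfbr2 (SD, n = 2) against 10739 ± 471 CPM in tumor sgScr (SD, n = 3). The 7 slow genes summed to 4.92 ± 0.399 CPM in sgTgfbr2 against 1316 ± 28.2 CPM in sgScr. The 2 developmental myosins had no count in sgTgfbr2 and summed to 1012 ± 52.2 CPM in sgScr. The 21 shared genes summed to 17.1 ± 4.42 CPM in sgTgfbr2 against 16731 ± 227 CPM in sgScr. Fast transcripts thus outweighed slow ones in tumor sgScr, although both stood well above the sgTgfbr2 libraries.

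Myosin heavy chains are the motors that set a fiber's speed, and 2 of the 6 carried nearly all of the signal. Myh1, the fast IIx chain (chr11:67200052-67224575, plus strand), had 0.380 and 0 CPM in tumor sgTgfbr2 against 1195, 1173 and 1154 CPM in tumor sgScr, a ratio of 6093 (95% exact binomial interval 2957 to 15155, counting error only). Myh8, the perinatal chain in the same cluster (chr11:67277124-67308634, plus strand), had no count in sgTgfbr2 against 1072, 981 and 982 CPM in sgScr. The fast IIa chain Myh2 had no count in sgTgfbr2 against 50.0, 44.9 and 41.3 CPM in sgScr, and the fast IIb chain Myh4 had 1 count in sgTgfbr2 against 12.8, 17.8 and 16.0 CPM in sgScr, a ratio of 567 (101 to 22407). The embryonic chain Myh3 was close to the floor, with no count in sgTgfbr2 and 0.317, 0.510 and 0.475 CPM in sgScr.

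Per kilobase of exon, Myh1 made up 57.1 ± 0.832% and Myh8 39.7 ± 0.875% of the heavy chain signal of tumor sgScr (SD, n = 3). Exon length, here and below, joins all annotated protein-coding exons of a gene, 6353 bases for Myh1 and 7871 for Myh8. The longest coding transcripts have 6081 and 6149 bases, so the shares depend on the length used, which the SDs do not cover. Myh2 made up 2.31 ± 0.153%, Myh4 0.800 ± 0.150% and Myh3 0.0223 ± 0.00580%. The order of these 5 was the same in all 3 libraries with no overlap of their levels per kilobase. These genes are near copies: 26.7% of the 50-base stretches of the Myh1 transcript occur in transcripts of other genes, 26.9% of those of Myh2, 21.4% of those of Myh8 and 18.9% of those of Myh4, so the split between them is uncertain.

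Myh7, the slow chain of skeletal muscle, which the heart also uses, went the other way. It had 25 and 44 counts in tumor sgTgfbr2, or 1.36 and 2.46 CPM, and no count in tumor sgScr, which puts it at least 36.3-fold higher in sgTgfbr2 against 3 counts over the sgScr group. No count of Myh7 fell in any of the 13 premalignant, PB and vehicle libraries. Myh6, its cardiac neighbor, shares 22.2% of the 50-base stretches of Myh7 and averaged 0.583 CPM in tumor sgTgfbr2 with no count in tumor sgScr.

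The light chains steady the myosin neck, and here fast and slow forms were mixed. Mylpf, the fast regulatory light chain, had 1.08 and 0.559 CPM in tumor sgTgfbr2 against 2282, 2671 and 2521 CPM in tumor sgScr, while its slow counterpart Myl2 was at 0 in both groups. The fast alkali light chain Myl1 had 0.597 and 0.224 CPM in sgTgfbr2 against 973, 1118 and 1046 CPM in sgScr. The slow alkali light chain Myl3 had no count in sgTgfbr2 against 847, 862 and 776 CPM in sgScr, at least 10071-fold lower. Per kilobase, Myl1 and Myl3 were level in tumor sgScr, at 50.0 ± 2.08% each of their pair (SD, n = 3), and which of them was higher differed between the libraries. Myosin-binding protein C, a thick-filament brace, leaned to its slow form: Mybpc1 made up 71.7 ± 1.43% and the fast form Mybpc2 28.3 ± 1.43% of the pair in sgScr. Mybpc1 had 0.217 and 0 CPM in sgTgfbr2 against 325, 336 and 369 CPM in sgScr, and Mybpc2 had 0.0542 and 0.727 CPM against 113, 112 and 112 CPM.

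The troponins, the calcium switch of the thin filament, were fast in all 3 subunits of tumor sgScr. Fast troponin C, Tnnc2, had no count in tumor sgTgfbr2 against 1151, 1294 and 1089 CPM in tumor sgScr, at least 14364-fold lower. Slow troponin C, Tnnc1, had 0 and 0.280 CPM in sgTgfbr2 against 4.12, 5.14 and 3.27 CPM in sgScr. The fast inhibitory subunit Tnni2 was the member with most counts left in sgTgfbr2, at 16.8 and 14.9 CPM against 1694, 1811 and 1592 CPM in sgScr, 108-fold lower (99.2 to 117). The slow inhibitory subunit Tnni1 had 2.55 and 1.40 CPM in sgTgfbr2 against 78.1, 76.3 and 81.2 CPM in sgScr. Fast troponin T, Tnnt3, had 0.380 and 0.280 CPM in sgTgfbr2 against 1591, 1791 and 1699 CPM in sgScr, and slow Tnnt1 had 1.08 and 0.503 CPM against 59.7, 65.5 and 59.6 CPM. Per kilobase, the fast form held 99.7% of troponin C, 97.5% of troponin I and 97.3% of troponin T in tumor sgScr, with SDs of 0.0472, 0.233 and 0.0883 percentage points over the 3 libraries.

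The exons of Tnnc2 overlap those of Ube2c, a cell cycle gene on the opposite strand, over 84.6% of their length, and the strand setting of the counting is not given in the sources used here. Ube2c stood at 51.4 and 45.3 CPM in tumor sgTgfbr2, where Tnnc2 had no count, and at no more than 28.4 CPM in tumor sgScr.

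**Figure D2:**
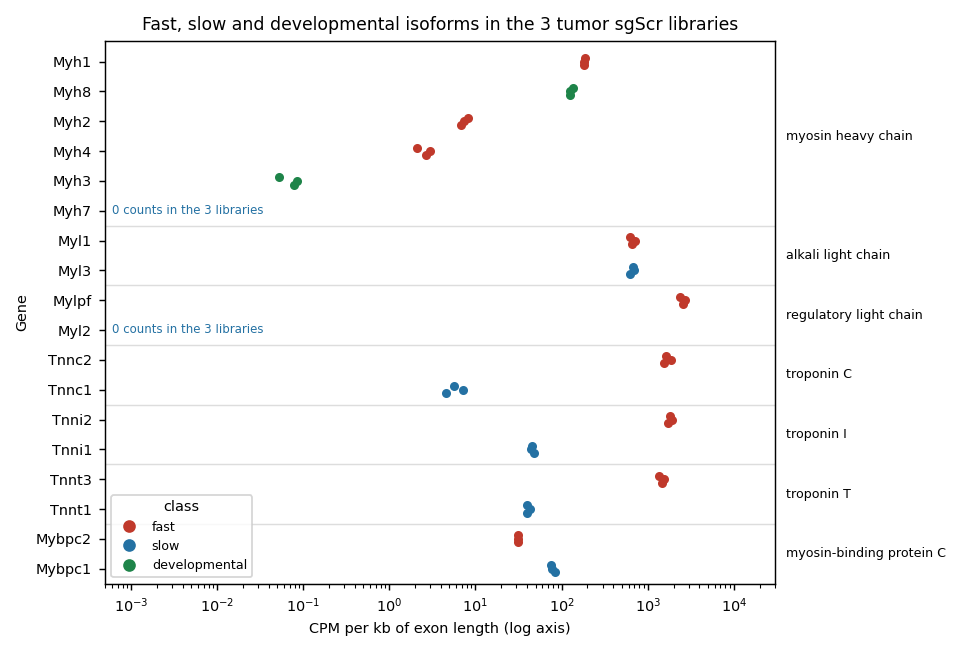
Levels of fast, slow and developmental isoforms in the 3 tumor sgScr libraries, in CPM per kb of exon length on a log axis, 1 point per library. Fast forms lie furthest right in the regulatory light chain and the 3 troponins, Myl1 and Myl3 coincide, and the slow Mybpc1 lies right of the fast Mybpc2.

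Skeletal alpha-actin, Acta1, the core of the thin filament, was the most abundant member (GRCm38 chr8:123891769-123894751, minus strand). It had 0 and 1.12 CPM in tumor sgTgfbr2, from 0 and 20 counts, against 8114, 8119 and 8147 CPM in tumor sgScr, a ratio of 14754 (9553 to 24155). At 5291 ± 11.5 CPM per kb in sgScr (SD, n = 3) it stood above the next members, Mylpf at 2563 ± 202, Tnni2 at 1817 ± 118, Tnnc2 at 1683 ± 150, Mb at 1546 ± 124 and Tnnt3 at 1449 ± 85.7 CPM per kb. From Tnni2 down to Tnnt3, the ranges of neighbors in this order overlapped. Of the Z-disc anchors, Actn2, present in all fibers, had 0 and 0.503 CPM in sgTgfbr2 against 227, 229.5 and 228 CPM in sgScr, and Actn3, the fast-fiber form, had 0.434 and 0.224 CPM against 105, 79.5 and 86.4 CPM.

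The giant proteins are Ttn, the elastic spring of the sarcomere, and Neb, which runs along the thin filament. Ttn had 0.488 and 0.727 CPM in tumor sgTgfbr2 against 311, 324 and 385 CPM in tumor sgScr, and Neb had 0.434 and 2.18 CPM against 231, 223 and 271 CPM. The Z-disc and costamere proteins Myot, Xirp2 and Smpx had no count in sgTgfbr2 and averaged 233, 151 and 219 CPM in sgScr. Calsarcin-2, Myoz1, had 1 count in sgTgfbr2 and averaged 258 CPM in sgScr, a ratio of 9398 with a counting interval of 1686 to 371223. The titin cap Tcap had 0.108 and 0.280 CPM in sgTgfbr2 against 257, 222 and 198 CPM in sgScr, and the Z-disc protein Ldb3 had 1.08 and 0.615 CPM against 221, 221 and 219 CPM.

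Genes that release and take back calcium were present as a full set in tumor sgScr. The release channel Ryr1 had 0.434 and 1.45 CPM in tumor sgTgfbr2 against 127, 99.4 and 106 CPM in tumor sgScr. Its voltage sensor Cacna1s had 2 counts in sgTgfbr2 and averaged 50.1 CPM in sgScr, a ratio of 908 (251 to 7498), and the sensor's gamma subunit Cacng1 had 0 and 0.503 CPM against 107, 102 and 99.8 CPM. The fast calcium pump Atp2a1 had 1.30 and 0.280 CPM in sgTgfbr2 against 810.4, 697 and 730.0 CPM in sgScr, and sarcolipin, Sln, which inhibits that pump, had no count against 722, 837 and 732 CPM. The calcium store protein Casq1 had 0.705 and 0.447 CPM in sgTgfbr2 against 158, 184 and 159 CPM in sgScr. Triadin, Trdn, which ties the store to the channel, had no count against 82.8, 103 and 97.6 CPM, and the fast-fiber calcium buffer Pvalb had none against 20.7, 26.6 and 22.1 CPM.

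The genes of muscle energy supply behaved alike. Muscle creatine kinase, Ckm, had 0.325 and 1.01 CPM in tumor sgTgfbr2 against 1799.9, 1716 and 1688 CPM in tumor sgScr. Its mitochondrial partner Ckmt2 had no count against 41.2, 45.3 and 47.0 CPM. Myoglobin, Mb, which stores oxygen, had 0.868 and 1.45 CPM in sgTgfbr2 against 2384, 2440.1 and 2097 CPM in sgScr. Muscle enolase, Eno3, had 8.24 and 6.49 CPM in sgTgfbr2 against 801, 864 and 777 CPM in sgScr, and muscle glycogen phosphorylase, Pygm, had 1.79 and 3.52 CPM against 528, 506 and 529 CPM. Of the muscle forms of cytochrome oxidase subunits, Cox6a2 had 0.0542 and 0.336 CPM in sgTgfbr2 against 149, 132 and 105 CPM in sgScr, and Cox8b had no count against 78.3, 83.9 and 61.4 CPM.

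The 3 tumor sgScr libraries held these genes at nearly the same levels. Over the 40 members of at least 5 CPM there, the coefficient of variation had a median of 6.80% and ran from 0.217% for Acta1 to 17.2% for Cox6a2.

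Muscle genes outside the list of 44 were compared in the same tumor table with edgeR, as sgTgfbr2 over sgScr. These lists too were drawn up with results of this contrast known, so the counts describe the lists and are not independent evidence of their direction. Of 106 tested, 93 fell and 4 rose at an adjusted p under 0.05, where 30.5% of all 15091 genes tested were called lower, 29.8% higher and 60.3% either way. By list, 34 of 36 other sarcomere genes fell and 1 rose, 28 of 30 other genes of excitation-contraction coupling, membrane and synapse fell and 1 rose, 18 of 21 other genes of energy metabolism fell and 2 rose, and 13 of 19 myogenic regulators fell. Of the 93, 46 reached the level of the filter on low counts in both groups. The other 47 reached it in sgScr alone, 21 of them with no count in sgTgfbr2, and the filter favored their being called lower. Median log2 fold changes were -6.87, -4.80, -2.35 and -4.22 in that order, against -0.02 over all genes. With genes of no count in sgTgfbr2 set at their bound against 3 counts, the medians were -6.44, -4.53, -2.35 and -2.51.

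In the other sarcomere genes, the muscle LIM protein Csrp3 had no count in tumor sgTgfbr2 against 624, 631 and 581 CPM in tumor sgScr, at least 7431-fold lower. Myoz2, a Z-disc protein of slow fibers, had no count against a mean of 174 CPM, at least 2105-fold lower. The chaperone Cryab averaged 21.2 CPM in sgTgfbr2 and 692 CPM in sgScr, an edgeR log2 fold change of -5.32 ± 0.16 (SE). The M-line protein Myom1 averaged 5.81 and 211 CPM (-5.47 ± 0.17). The genes of this paragraph were named by their smallest p in this contrast, so their values are a description with no p. Of the membrane and reticulum genes, muscle caveolin Cav3 averaged 1.27 CPM in sgTgfbr2 and 52.2 CPM in sgScr (-5.64 ± 0.23). Hrc averaged 0.716 and 37.0 CPM (-5.96 ± 0.27), Jsrp1 0.609 and 64.8 CPM and Srl 0.753 and 94.7 CPM. Of the metabolic genes, muscle phosphoglycerate mutase Pgam2 averaged 2.103 CPM in sgTgfbr2 and 215 CPM in sgScr (-6.97 ± 0.24). The purine cycle enzyme Adssl1 averaged 18.4 and 128 CPM (-3.09 ± 0.15), muscle phosphofructokinase Pfkm 23.4 and 159 CPM (-3.06 ± 0.15) and Apobec2 0.699 and 477 CPM. Jsrp1, Srl and Apobec2 reached the filter's level in sgScr alone, so only their levels are given.

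Regulators of muscle identity were low but counted in tumor sgScr. Myf6, which stays on in mature fibers, had 0.380 and 0 CPM in tumor sgTgfbr2 against 38.9, 38.5 and 36.7 CPM in tumor sgScr. As Myf6 reached the filter's level in sgScr alone, only its levels are given. Myog, which drives differentiation, had no count against 4.38, 6.16 and 3.21 CPM (at least 57.0-fold lower), and Myod1 none against 5.02, 4.08 and 2.67 CPM (at least 48.1-fold lower). Myf5 had none against 1.69, 2.13 and 3.68 CPM (at least 29.5-fold lower). Pax7, the satellite cell factor, had none against 0.686, 0.602 and 0.0594 CPM (at least 5.70-fold lower). For Pax7, 1 of the 3 sgScr libraries was below the floor, and its call was lost without either of the sgTgfbr2 libraries (edgeR adjusted p up to 0.0602). Tbx1, a factor of pharyngeal and esophageal muscle progenitors, fell by 5.93 ± 0.27 on the log2 scale and Mef2c by 4.22 ± 0.20. The 4 genes that rose were named after their values were seen. Tpm3 averaged 430.1 CPM in sgTgfbr2 and 113 CPM in sgScr (1.64 ± 0.12) and Ldhb 103 and 31.5 CPM (1.42 ± 0.16). Fabp3 averaged 26.0 and 14.6 CPM (0.55 ± 0.19) and Atp2a2 369 and 222 CPM (0.44 ± 0.12). The call of Fabp3 was lost with the replicate block, without sgScr replicate 3 and without sgTgfbr2 replicate 1 (edgeR adjusted p up to 0.0744), and that of Atp2a2 without sgTgfbr2 replicate 2 (adjusted p = 0.0646).

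**Figure D3:**
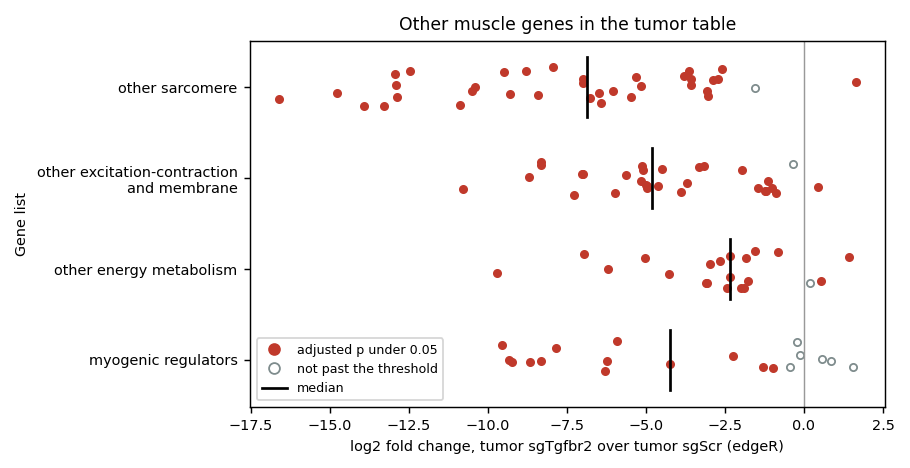
Each point is 1 muscle gene outside the 44, placed by its edgeR log2 fold change in tumor organoids, sgTgfbr2 over sgScr, and the bars are list medians. Filled points pass an adjusted p of 0.05, and most lie left of 0 in all 4 lists. The 21 genes with no count in sgTgfbr2 sit at fitted values, which depend on the model's prior count.

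Markers of other cells also differed between the tumor groups, and their part in the results above was not tested. The 11 smooth muscle genes summed to 1703 and 1814 CPM in tumor sgTgfbr2 against 474 to 489 CPM in tumor sgScr, and all 11 had counts in both groups. Of the 12 cardiac genes the sum was 60.5 and 61.9 CPM in sgTgfbr2 against 351 to 376 CPM in sgScr, of which Actc1, also an actin of developing skeletal muscle, averaged 334 CPM in sgScr with no count in sgTgfbr2. The cardiac markers Myh6 and Nppa had no count in sgScr, and of 7 cardiac genes tested 3 rose and 3 fell in sgTgfbr2, with a median log2 fold change of 0.96, so the lower sum is set by Actc1. The 10 fibroblast genes summed to 2543 and 2617 CPM in sgTgfbr2 against 3597 to 3720.2 CPM in sgScr, the 8 endothelial genes to 126 and 132 against 153 to 172 CPM, the 9 immune genes to 928 and 1001 against 1028 to 1068 CPM, with Cd3e at 0 in sgScr, and the 8 neural and Schwann genes to 93.8 and 119.7 against 97.0 to 107 CPM, with Elavl4 at 0 in both. The 8 squamous epithelial genes summed to 22646 and 23410.1 CPM in sgTgfbr2 against 118722 to 127413 CPM in sgScr. That sum is set by the keratins of upper layers, Krt13 at 7760 and 7643 CPM in sgTgfbr2 against 54608 to 57360 CPM in sgScr and Krt4 at 3986 and 3985 CPM against 61317 to 66893 CPM. Over the 8 genes 5 rose and 3 fell, with a median log2 fold change of 0.65, and the basal keratins Krt5, at 4402 and 4376 CPM against 1251 to 1453 CPM, and Krt14, at 5941 and 5315 CPM against 995 to 1182 CPM, were higher in sgTgfbr2. With vehicle, the fibroblast genes came to 0.651 to 0.749 CPM and the smooth muscle genes to 144 to 148 CPM, of which Smtn made up 139 to 142 CPM.

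In premalignant organoids the members stood at low levels, and 9 of the 44 passed the filter on low counts. Of these, 3 rose and 1 fell in sgTgfbr2 over sgScr, where 22.7% of the 13098 genes tested were called higher, 23.5% lower and 46.2% either way, so the share of members called is near that of all genes. Ryr1 and Tnni1, which rose, were at the level of the filter in both groups. Ttn, called higher, reached it in sgTgfbr2 alone, and Neb, called lower, in enough libraries of sgScr alone. The filter favored both calls, so both genes are given by their counts with no p.

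Ryr1 had 4.24, 5.03, 6.76 and 5.06 CPM in premalignant sgTgfbr2 against 1.35, 2.11 and 1.98 CPM in premalignant sgScr. Its log2 fold change was 1.46 ± 0.26 (SE, edgeR adjusted p = 0.00201). Ttn had 0.760, 1.258, 1.242 and 1.233 CPM in sgTgfbr2 against 0.234, 0.0459 and 0.356 CPM in sgScr. From 81 and 12 counts in all, its ratio was 5.47 (2.96 to 11.01). Tnni1 had 2.77, 2.76, 3.13 and 2.86 CPM in sgTgfbr2 against 1.17, 2.203 and 1.37 CPM in sgScr (0.78 ± 0.29, adjusted p = 0.0489). Neb had 0.217, 0.419, 0.414 and 0.649 CPM in sgTgfbr2 against 0.879, 0.780 and 1.17 CPM in sgScr from 30 and 55 counts in all, a ratio of 0.442 (0.273 to 0.701). The calls of Tnni1 and Neb were lost in most alternatives. With the replicate number as a block, 2 members were called, Ryr1 and Ttn, and the filter favored the call of Ttn there too. The same number was called without sgScr replicate 1 or without sgTgfbr2 line 2 replicate 1.

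The other 5 tested members did not pass. Eno3 had 5.16, 5.39, 6.03 and 6.95 CPM in premalignant sgTgfbr2 against 2.99, 4.68 and 3.41 CPM in premalignant sgScr (0.59 ± 0.23, edgeR adjusted p = 0.0560). Tnni2 averaged 2.09 CPM in sgTgfbr2 and 3.28 CPM in sgScr (-0.73 ± 0.28, adjusted p = 0.0596), Mylpf 6.87 and 3.94 CPM (0.74 ± 0.31, adjusted p = 0.0773), Mb 2.59 and 1.89 CPM (0.38 ± 0.33, adjusted p = 0.373) and Tnnc2 0.581 and 0.723 CPM (-0.35 ± 0.63, adjusted p = 0.674). Within the sgTgfbr2 group, Mylpf differed between the lines, at 8.79 and 9.61 CPM in line 2 against 4.07 and 5.03 CPM in line 1 (1.02 ± 0.20, edgeR adjusted p = 0.00227), where 26.5% of genes differed between the lines. None of the other 8 tested members was called between the lines, by edgeR, at adjusted p from 0.281 to 0.803. The other 35 members, which did not pass the filter, stayed below 1 CPM in every premalignant library, and the heavy chains together reached 10 counts over the 3 sgScr libraries and 5 counts over the 4 sgTgfbr2 libraries.

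**Figure D4:**
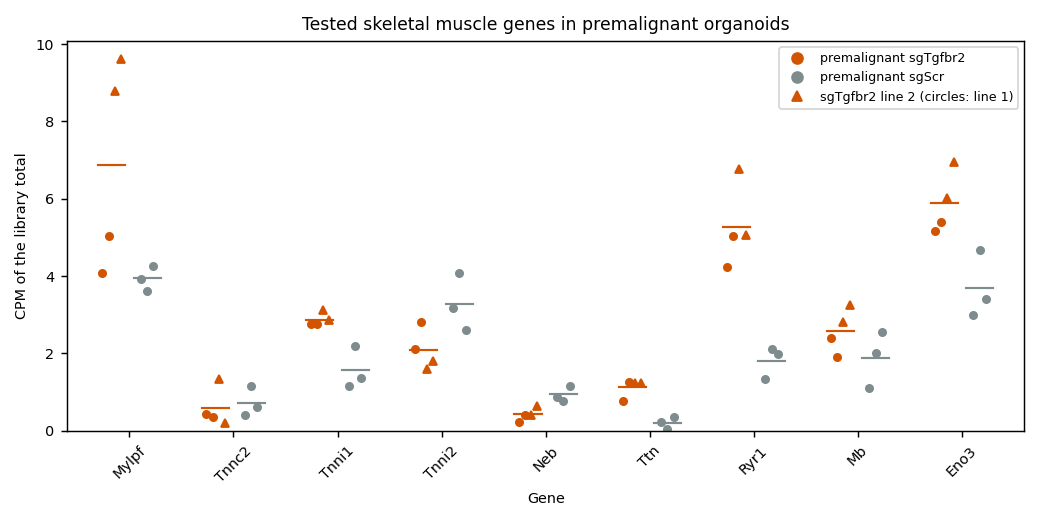
CPM of the 9 tested members in premalignant organoids, sgTgfbr2 left and sgScr right for each gene, 1 point per library, with triangles for line 2 and bars for group means. Ryr1, Ttn, Tnni1 and Eno3 lie above the sgScr points in all 4 sgTgfbr2 libraries, and Mylpf splits by line. The share of all genes whose groups lie apart was not counted, so nothing is read from the separation.

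Other muscle genes in the premalignant table moved both ways: 4 rose and 2 fell of 10 tested sarcomere genes, 3 and 3 of 14 coupling genes, 6 and 5 of 17 metabolic genes, and 4 rose of 9 regulators. Median log2 fold changes were 0.36, 0.05, 0.16 and 0.54, against -0.004 over all genes. Of all genes tested, 22.7% were called higher and 23.5% lower. On these lists, 6 genes called higher reached the filter's level in sgTgfbr2 alone, Myom3, Dok7 and Pdk4 among them. Another 1, called lower, reached it in sgScr alone. The filter favored such calls, and nothing is read from them. Of the sarcomere genes, the M-line gene Myom3 averaged 3.95 CPM in sgTgfbr2 and 0.618 CPM in sgScr (log2 fold change 2.597) and the filamin Flnc 8.37 and 1.88 CPM (2.096). Of the tropomyosins, Tpm2 averaged 215 and 308 CPM (-0.59) and Tpm3 292 and 453 CPM (-0.71). Of the coupling genes, the calcium channel subunit Cacnb1 averaged 4.14 CPM in sgTgfbr2 and 0.813 CPM in sgScr (2.28) and Dok7, of the nerve-muscle synapse, 1.11 and 0.279 CPM (1.85), while Asph averaged 53.2 and 92.7 CPM (-0.87) and the calcium store protein Casq2 3.45 and 8.96 CPM (-1.44). Of the metabolic genes, Pdk4, which restrains glucose oxidation, averaged 4.40 CPM in sgTgfbr2 and 0.386 CPM in sgScr (3.45) and the mitochondrial coactivator Ppargc1a 6.89 and 1.06 CPM (2.61), while glycogen synthase Gys1 averaged 37.1 and 82.4 CPM (-1.22) and the ADP/ATP carrier Slc25a4 307 and 412 CPM (-0.49). The regulators that rose included Six4, at 33.6 CPM in sgTgfbr2 and 8.17 CPM in sgScr (1.97), the laminin receptor subunit Itga7 at 54.7 and 13.2 CPM (1.98) and Mef2d at 53.3 and 40.5 CPM (0.33). Myog, Myf5, Myf6 and Pax7 had no count in any premalignant library.

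The members that could be tested with PB were few and low. Of 14 that passed the filter, 9 fell and 1 rose over vehicle, where 36.8% of the 12801 genes tested were called lower, 36.5% higher and 73.3% either way, so the share of members called is near that of all genes. Of the 9 that fell, 6 reached the level of the filter with vehicle alone (Pygm, Casq1, Atp2a1, Neb, Mb and Tnnc2). Cox6a2, the 1 that rose, reached it with PB alone. Tnni1 reached it in enough libraries of vehicle alone and was not called. The filter favored the calls of the 6 and of Cox6a2. These 7 called members are given by their counts with no p. Of the 6 members at that level in both groups, Tnni2, Ldb3 and Mylpf fell and Eno3, Ryr1 and Ttn were not called. The highest, Eno3, had 7.07, 8.78 and 6.44 CPM with PB against 8.36, 8.79 and 9.24 CPM with vehicle and was not called (-0.10 ± 0.12, edgeR adjusted p = 0.451).

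Tnni2, fast troponin I, had 2.40, 1.92 and 2.19 CPM with PB against 7.51, 6.77 and 6.56 CPM with vehicle (log2 fold change -1.54 ± 0.17, edgeR adjusted p = 4.73e-12). Ldb3 averaged 0.984 CPM with PB and 1.86 CPM with vehicle (-0.77 ± 0.29, adjusted p = 0.0153), and Mylpf 4.84 and 6.66 CPM (-0.32 ± 0.14, adjusted p = 0.0412). The call of Ldb3 was lost in 2 of 10 alternatives, with DESeq2 and without PB replicate 1. That of Mylpf was lost in 7 of 10, among them DESeq2 and leaving out PB replicate 1, PB replicate 2 or any 1 vehicle library. Ryr1 (-0.29 ± 0.24, adjusted p = 0.264) and Ttn (-0.15 ± 0.26, adjusted p = 0.609) were not called, nor was Tnni1 (-0.34 ± 0.35, adjusted p = 0.384).

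Pygm, which breaks down muscle glycogen (chr19:6384399-6398459, plus strand), had 0.400, 0.330 and 0.515 CPM with PB against 5.51, 5.14 and 5.12 CPM with vehicle, a ratio of pooled counts of 0.0791 (0.0468 to 0.126). The calcium store protein Casq1 had 0.200, 0.132 and 0.0644 CPM with PB against 0.848, 1.17 and 0.687 CPM with vehicle, a ratio of 0.146 (0.0509 to 0.345). The fast calcium pump Atp2a1 had 0.333, 0.132 and 0.322 CPM with PB against 1.27, 1.11 and 1.37 CPM with vehicle, a ratio of 0.210 (0.103 to 0.394). Neb had 0.200, 0.330 and 0.451 CPM with PB against 0.909, 1.50 and 1.62 CPM with vehicle, a ratio of 0.246 (0.130 to 0.436). Mb, at 15 against 40 counts, had a ratio of 0.393 (0.202 to 0.728), and Tnnc2, at 16 against 42 counts, one of 0.399 (0.210 to 0.726). Ube2c, which overlaps Tnnc2, stood at 188 to 199.7 CPM with PB and 188 to 196 CPM with vehicle. In all 9 genes called lower, every PB library lay below every vehicle library. These genes were picked by that call and the share of all genes with this pattern was not counted, so nothing is read from it. Without PB replicate 1, the number of members called was 6.

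Cox6a2, the muscle form of a cytochrome oxidase subunit (chr7:128205435-128206387, minus strand), was the member that rose. It had 1.33, 1.25 and 1.29 CPM with PB, from 59 counts in all, against 1 count in the 3 vehicle libraries, a ratio of 61.9 with a counting interval of 10.7 to 2484. Its exons overlap those of Itgad on the opposite strand over 10.3% of their length. Cox8b, another muscle form in the same complex, did not pass the filter and had no count with PB against 0.364, 0.391 and 0.562 CPM with vehicle, at least 6.68-fold lower against 3 counts over the PB group. Acta1 did not pass either, with 0.0667, 0.132 and 0.129 CPM with PB against 0.606, 0.651 and 0.562 CPM with vehicle, a ratio of 0.181 (0.0546 to 0.472).

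**Figure D5:**
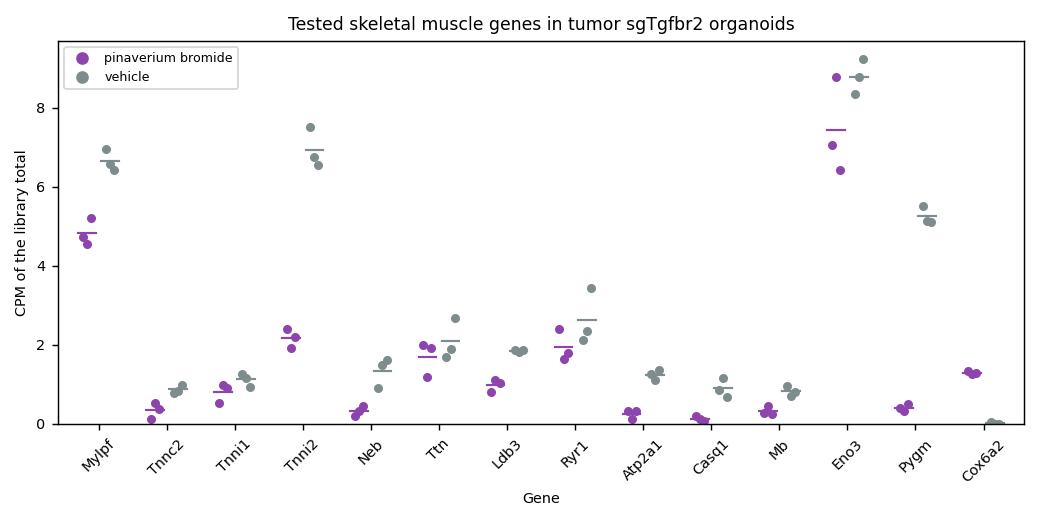
CPM of the 14 tested members in tumor sgTgfbr2 organoids, pinaverium bromide left and vehicle right for each gene, 1 point per library and bars for group means. Pygm, Tnni2, Neb, Atp2a1, Casq1, Mb, Tnnc2, Ldb3 and Mylpf are lower in every PB library than in any vehicle library, and Cox6a2 is higher.

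Of the other muscle genes in the PB table, 2 rose and 6 fell of 11 tested sarcomere genes, 2 and 5 of 11 coupling genes, 1 and 12 of 14 metabolic genes, and 4 and 1 of 6 regulators, with median log2 fold changes of -0.27, -0.21, -0.68 and 0.55 against -0.01 over all genes. Of all genes tested, 36.5% were called higher and 36.8% lower. On these lists, 5 genes called lower reached the filter's level with vehicle alone, Stac3 and Myh7b among them. Another 1, called higher, reached it with PB alone. The filter favored such calls. Scaling by library totals in place of TMM shifts every log2 fold change by -0.14 in the PB table and by 0.29 in the tumor table. Of the metabolic genes, the glycolytic enzyme Aldoa averaged 1028 CPM with PB and 1754 CPM with vehicle (log2 fold change -0.63 ± 0.02, edgeR adjusted p = 2.43e-38), hexokinase Hk2 70.9 and 131 CPM (-0.75), Gys1 25.1 and 48.9 CPM (-0.83) and Adssl1 8.67 and 15.3 CPM (-0.68). Of the coupling genes, Stac3, which helps the voltage sensor work, averaged 0.370 CPM with PB and 3.41 CPM with vehicle (-3.03), Srl 2.18 and 9.43 CPM (-1.97) and Asph 47.7 and 71.8 CPM (-0.45), while the slow calcium pump Atp2a2 averaged 669 and 551 CPM (0.42). Of the sarcomere genes, Myh7b averaged 0.394 CPM with PB and 2.17 CPM with vehicle (-2.30), Myom3 1.93 and 5.24 CPM (-1.30), Tpm1 253 and 329 CPM (-0.24) and Tpm2 232 and 303 CPM (-0.25). The 4 regulators that rose were Mef2a, at 127 CPM with PB and 87.2 CPM with vehicle (0.68), Six4 at 37.6 and 22.7 CPM (0.87), Mef2d at 65.7 and 53.6 CPM (0.43) and Itga7 at 12.7 and 8.80 CPM (0.66).

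The troponin I balance of the low-level libraries was not that of tumor sgScr. Slow Tnni1 made up 6.28 ± 1.99% of troponin I per kilobase in tumor sgTgfbr2 (SD, n = 2) against 2.48 ± 0.233% in tumor sgScr (SD, n = 3). It made up 43.6 ± 7.06% in premalignant sgTgfbr2 (SD, n = 4) against 20.7 ± 3.34% in premalignant sgScr (SD, n = 3), from 358 and 289 counts of both isoforms. With PB the share was 17.1 ± 5.72%, against 8.13 ± 0.765% with vehicle (SD, n = 3 each), from 136 and 387 counts. In each of the 3 pairs the shares of the 2 groups did not overlap. The shares were not tested, and troponin I was singled out with its values known, so nothing is read from that. Slow Tnnc1 made up 23.2 to 78.1% of troponin C in premalignant sgTgfbr2 and 21.7 to 42.1% in premalignant sgScr, which overlap. With PB its share was 39.3 to 70.8%, against 6.95 to 34.3% with vehicle, from 31 and 53 counts. Regulatory light chain was all Mylpf wherever any was counted, and the troponin T and myosin-binding protein C pairs held at most 40 counts in any premalignant, PB or vehicle group.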

How the data were processed

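The RNA-seq values came as 3 tables, 1 per comparison. The deposited Count_ columns hold raw whole-number counts per gene, and the tables' 18 other per-library columns were not used. Per the submitters' processing notes, the authors used STAR 2.6.0a, DESeq2 1.26.0 and mm10; the strand setting is not given in the sources used here. From the counts, CPM of the library total was computed, and each table was tested with edgeR 4.0.16 (R 4.3.3, TMM, filterByExpr with a minimum count of 10, quasi-likelihood F test, Benjamini-Hochberg adjustment over all genes tested, threshold 0.05). SEs are the log2 fold change divided by the square root of F. The test was checked on simulated data. DESeq2 1.42.0, other filters, a replicate block and leaving out each library were alternatives.

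Ratios of pooled counts carry 95% exact (Clopper-Pearson) intervals, and these and the floors of 3 counts cover counting error only. The 44 members, the muscle lists and the named genes were chosen with earlier results of these data known. Named genes were all members, and the 4 other muscle genes per list and comparison with the smallest p among those past the threshold, plus Pax7, Myf5, Myod1, Myog and Myf6. The values of 1 gene that this rule selects are not reported here. Libraries with the same replicate number did not deviate together, so the numbers were not used as pairs. No replicate libraries agreed within sampling noise, and the labels give no batch.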

Additional observations from a re-analysis of the deposited data

Results flagged for a closer look

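Ttn in premalignant sgTgfbr2 had 1 library apart: line 1 replicate 1 had 0.760 CPM and the other 3 had 1.233 to 1.258 CPM, a gap of 0.950 of the group's range. Among 10 items examined this way, chance alone marks about 1 in 20.

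Mylpf differed between the premalignant sgTgfbr2 lines, by 1.02 on the log2 scale, line 2 over line 1 (edgeR adjusted p = 0.00227).

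For 4 members every premalignant sgTgfbr2 library lay above every premalignant sgScr library, while both tumor sgTgfbr2 libraries lay below all tumor sgScr libraries. The premalignant log2 fold changes were 1.46 for Ryr1, 2.34 for Ttn, 0.78 for Tnni1 and 0.59 for Eno3, of which Eno3 did not pass the threshold and Ttn reached the filter's level in sgTgfbr2 alone. The members were chosen on the tumor contrast, so the tumor direction came with that choice and nothing is read from the opposition. The share of all genes with this pattern was not counted. The difference between the premalignant and tumor effects was not tested.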

How the results depend on the processing

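No result changed direction. In the premalignant comparison the 4 members called became 2 with no filter and 2 with the replicate block, and 2 to 4 when each library was left out. DESeq2 called 5, all higher. Ryr1 and Ttn were called in every alternative that tested them, while Neb was lost in 10 of 12 and Tnni1 in 9 of 13. Ttn had passed the main filter through sgTgfbr2 alone, so nothing is read from its calls. In the PB comparison the 10 members called became 6 with a filter of 1 CPM and 6 to 9 when each library was left out, and 10 with the replicate block. With the 1 CPM filter Casq1, Neb, Mb and Tnnc2 were not tested, and the other alternatives lost calls of Mylpf, Mb, Tnnc2 and Ldb3. Of other muscle genes in the tumor comparison, 97 were called, 96 with the replicate block and 93 to 97 when each library was left out. Same-numbered libraries share only a number, so a call lost under the block is not read as a weaker effect. With TMM-scaled library sizes the summed members were 37.0 CPM in tumor sgTgfbr2 and 32289 CPM in tumor sgScr, against 41.7 and 29798 CPM with library totals. Leaving out each library gave 40.9 to 42.6 CPM in sgTgfbr2 and 29436 to 30068 CPM in sgScr. Depth limits members below 0.200 CPM, and with 2 tumor sgTgfbr2 libraries the spread of that group rests on a single difference.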
